A study of Mus musculus with 2 samples.

Results

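Non-classical monocytes were read from the CD45+ cells of B16-F10 tumours, a transplantable mouse melanoma, by droplet single-cell RNA sequencing. The KO library came from DGAT1-knockout tumours and the WT library from WT tumours. DGAT1 is an enzyme that makes triglyceride from diacylglycerol. The labels give day 14 as the time of harvest, 3 tumours behind each group, a digestion with collagenase D and DNase and a sort for viable CD45+ cells. Because 1 library stands for the tumours of a group and its barcodes are not assigned to tumours, no test between KO and WT was possible. The mouse strain is not stated. The values therefore describe 2 libraries, and every interval is an exact 95% interval that covers counting error only.

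Members were chosen by their raw UMIs. A barcode counted as a non-classical monocyte when it held at least 3 UMIs of Ace, Treml4 and Adgre4 together. UMIs are unique molecular identifiers, each standing for 1 captured RNA molecule. Barcodes needed at least 1000 UMIs, at least 300 genes and at most 10% mitochondrial UMIs. Barcodes with 10 or more C1qa, C1qb and C1qc UMIs per 10000, more than 1 Cd3 UMI, any Siglech, Xcr1 or Clec9a UMI, or 5 or more UMIs of Inhba, Egln3, Pdpn and Slc7a2 were left out. Of 20216 barcodes that passed the quality filter, 732 met the rule, 496 of 11238 in the KO library and 236 of 8978 in the WT library. Classical monocytes, the cells they are set against, had the same exclusions, under 3 UMIs of Ace, Treml4 and Adgre4, at least 1 UMI each of Ly6c2, Ccr2 and Vcan and at least 5 of these together. They numbered 737 in the KO library and 293 in the WT library.

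Monocytes leave the bone marrow as classical cells, high in Ly6C and CCR2, which enter inflamed tissue. In the mouse, part of them convert into non-classical cells, low in Ly6C, which crawl along the vessel wall, take up debris and depend on the nuclear receptor NR4A1, on C/EBPβ, on CX3CR1 and on CSF1R signalling. Ace encodes angiotensin-converting enzyme, Treml4 a receptor of the TREM family, Adgre4 the adhesion receptor EMR4, Ceacam1 an inhibitory adhesion receptor, and Hpgd the enzyme that inactivates prostaglandin E2.

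The promoters of the 5 genes that mark these cells are shown to place the label genes in the genome and to show what their sequence does and does not hold. Each line gives 300 bases, 250 before to 50 after the start of the RefSeq gene in build GRCm38.p6, 5′ to 3′ on the gene's strand. They lie at chr7:25477576-25477875 (Ceacam1, minus strand), chr8:56294302-56294601 (Hpgd, plus strand), chr17:55749734-55750033 (Adgre4, plus strand), chr17:48264045-48264344 (Treml4, plus strand) and chr11:105967698-105967997 (Ace, plus strand). Capitals mark any match, on either strand, to the NR4A element AAAGGTCA, the PU.1 core GAGGAAGT, the octamer ATTTGCAT, the C/EBP core TTGCNNAA, the AP-1 site TGANTCA and the KLF core CCNCNCCC.
Ceacam1: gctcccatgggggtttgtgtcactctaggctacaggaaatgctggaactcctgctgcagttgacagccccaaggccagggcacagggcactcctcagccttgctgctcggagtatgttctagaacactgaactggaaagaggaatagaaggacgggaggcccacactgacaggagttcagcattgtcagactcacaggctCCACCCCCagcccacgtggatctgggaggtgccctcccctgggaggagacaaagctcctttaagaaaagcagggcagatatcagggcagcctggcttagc
Hpgd: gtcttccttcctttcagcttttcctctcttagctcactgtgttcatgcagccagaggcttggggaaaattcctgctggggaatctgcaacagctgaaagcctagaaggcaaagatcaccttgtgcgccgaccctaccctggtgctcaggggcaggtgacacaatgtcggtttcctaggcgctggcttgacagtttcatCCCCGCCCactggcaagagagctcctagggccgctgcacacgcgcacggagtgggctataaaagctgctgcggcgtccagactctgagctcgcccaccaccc
Adgre4: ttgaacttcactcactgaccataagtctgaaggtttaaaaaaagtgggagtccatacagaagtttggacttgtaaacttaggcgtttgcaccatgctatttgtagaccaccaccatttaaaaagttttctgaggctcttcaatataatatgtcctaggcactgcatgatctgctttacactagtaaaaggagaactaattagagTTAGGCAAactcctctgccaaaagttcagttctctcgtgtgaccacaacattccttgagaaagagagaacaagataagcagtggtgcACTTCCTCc
Treml4: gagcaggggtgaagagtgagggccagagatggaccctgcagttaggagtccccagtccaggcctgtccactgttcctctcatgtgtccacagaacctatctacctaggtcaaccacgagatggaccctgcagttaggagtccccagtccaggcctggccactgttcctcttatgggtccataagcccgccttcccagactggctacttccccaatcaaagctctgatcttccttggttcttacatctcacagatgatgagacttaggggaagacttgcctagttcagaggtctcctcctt
Ace: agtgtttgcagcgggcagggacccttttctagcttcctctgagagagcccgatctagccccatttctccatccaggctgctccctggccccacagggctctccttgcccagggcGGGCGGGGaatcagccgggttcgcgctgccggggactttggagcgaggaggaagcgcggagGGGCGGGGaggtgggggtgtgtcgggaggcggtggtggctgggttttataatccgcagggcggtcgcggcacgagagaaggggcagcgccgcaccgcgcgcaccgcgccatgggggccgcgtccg

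Ceacam1 and Hpgd each held 1 KLF core on the plus strand and Ace held 2 on the minus strand. Adgre4 held 1 C/EBP core and 1 PU.1 core, both on the minus strand, and Treml4 held no match. Of 32851 RefSeq promoters of this length, 49.5% held a KLF core, 10.8% a C/EBP core, 7.81% an AP-1 site, 3.20% a PU.1 core, 1.74% an octamer and 1.51% the NR4A element. Of the 6 RefSeq entries for these genes, which include a second start of Ace not shown, 3 held a KLF core, a share like that of promoters at large. A match describes letters only.

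The KO library held 202946827 UMIs and the WT library 235652476. Filtered barcodes had a median of 11103 UMIs in KO and 14866 in WT, so the WT library was the deeper. The non-classical monocytes held 4294204 UMIs in KO and 2429516 in WT, and a cell had a median of 7837.5 UMIs and 2762.5 genes in KO, against 9520.5 UMIs and 3007 genes in WT. Scrublet, a doublet caller, marked 6 of the KO cells and 1 of the WT cells, and they were kept. No barcode was shared between KO and WT non-classical monocytes, and 25 were shared among all filtered barcodes. Dgat1 was at 11.2 CPM in KO and 13.6 CPM in WT non-classical monocytes. CPM is a gene's UMIs divided by the sum over all genes in the same cells and library, times 1000000. The knockout is of the tumour and the sort took CD45+ cells, so this level checks no label.

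Ceacam1 and Hpgd, the label markers that the rule did not use, were higher than in classical monocytes. Ceacam1 was at 91.1 CPM in KO non-classical monocytes (82.3 to 101) and 84.4 CPM in WT (73.2 to 96.8), against 12.9 CPM in KO and 13.01 CPM in WT classical monocytes. That made it 7.06 times higher than in classical monocytes in KO (5.66 to 8.88) and 6.49 times in WT (4.75 to 8.997). Hpgd was at 75.2 CPM in KO and 78.6 CPM in WT, against 8.43 and 7.40 CPM in KO and WT classical monocytes, 8.93 times higher in KO (6.83 to 11.8) and 10.6 times in WT (7.17 to 16.3). Of the Hpgd UMIs in non-classical monocytes, 38.1% (KO) and 52.9% (WT) lay in 10 cells, a spread that the intervals do not cover. In both libraries each gene was thus several times higher in the non-classical cells, beyond counting error. Between the libraries neither differed beyond it, with a KO over WT ratio of 1.08 for Ceacam1 (0.909 to 1.28) and 0.957 for Hpgd (0.798 to 1.15).

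Detection in single cells ran the same way. A Ceacam1 UMI was seen in 41.3% of KO and 38.1% of WT non-classical monocytes, and in 11.7% and 15.7% of KO and WT classical monocytes. T cells, given beside them as another type although activated T cells can carry the protein, showed it in 1.12% (KO) and 1.24% (WT) at medians of 17504 and 20875 UMIs. With each cell thinned to 2000 UMIs, the non-classical shares were 15.95% in KO and 15.4% in WT and the classical shares 2.45% and 3.08%. A Hpgd UMI was seen in 21.0% of KO and 23.7% of WT non-classical monocytes, in 4.34% and 3.75% of KO and WT classical monocytes and in 0.530% and 0.581% of KO and WT T cells. Either UMI was present in 52.6% of KO and 49.2% of WT non-classical monocytes.

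The rule genes themselves, given as a description, were concentrated in these cells. The non-classical monocytes held 2.41% of the filtered UMIs of the KO library and 1.23% of those of the WT library, but 68.9% (KO) and 72.0% (WT) of the Ace UMIs and 71.8% and 70.5% of the Adgre4 UMIs. For Treml4 the shares were 53.7% in KO and 38.3% in WT. Some genes outside the rule were also concentrated. The cells held 51.0% (KO) and 43.3% (WT) of the Hpgd UMIs, 38.1% and 26.7% of the Ceacam1 UMIs, and 41.8% and 30.9% of those of Hes1, a target gene of Notch, the pathway that drives conversion in the mouse. Other genes described below were not. For Spn the shares were 2.53% (KO) and 1.68% (WT) and for Runx2 2.00% and 1.53%, near those of all UMIs. All 3 rule genes were seen together in 192 KO cells (38.7%) and 102 WT cells (43.2%), and 85 KO and 34 WT cells passed on 1 gene alone. Among those single-gene cells, 37.6% in KO and 38.2% in WT carried a Ceacam1 or Hpgd UMI, against 67.2% and 62.7% of the KO and WT cells with all 3.

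Free RNA and other cell types left measurable traces. Melanoma genes (Pmel, Mlana, Dct, Tyrp1 and Tyr) summed to 61.7 CPM in KO and 207 CPM in WT non-classical monocytes. Read against barcodes of 1 to 100 UMIs, that level corresponds to 10.0% of the UMIs in KO and 10.1% in WT being free RNA, or 7.93% in KO without 1 cell. In classical monocytes, without cells of 10 or more melanoma UMIs, the share was 7.60% in KO and 6.84% in WT. With those cells, 1 in KO and 5 in WT, the same estimate was 28.5% in KO and 81.7% in WT. They were kept in the classical sums, where melanoma genes summed to 176 CPM in KO and 1685 CPM in WT, 76.4% and 93.02% of it in 10 cells. Macrophage genes (C1qa, C1qb, C1qc, Mrc1, Ms4a7, Trem2, Mertk and Folr2) summed to 197 CPM in KO and 288 CPM in WT. Neutrophil genes summed to 380 CPM in KO and 296 CPM in WT. Csf3r gave 227 and 166 CPM of this, with a UMI in 348 KO and 163 WT cells. Free RNA could give 2.31% (KO) and 2.07% (WT) of its UMIs. It was at 129 and 96.7 CPM in KO and WT classical monocytes. Most of the sum was thus spread over many cells and is not read as a trace of neutrophils. S100a8 and S100a9 were at 60.5 and 67.1 CPM in KO and 21.0 and 18.5 CPM in WT. G0s2 went the other way, at 7.92 CPM in KO and 85.2 CPM in WT. These 3 genes lay mostly in 10 cells. NK cell genes summed to 58.9 CPM in KO and 11.1 CPM in WT, and T cell genes to 39.8 and 38.7 CPM. Red cell genes summed to 599.6 CPM in KO, 99.6% of it in 10 cells, and to 9.06 CPM in WT. Mast cell and basophil genes, with 1 of 5 detected, were at 0.233 CPM in KO and 0.412 CPM in WT.

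Marker genes that the rule did not use were graded across its threshold. Barcodes with 1 or 2 rule-gene UMIs that met the other conditions, just outside, numbered 295 and 145 in KO and 134 and 62 in WT. Those with 3 UMIs, just inside, numbered 84 in KO and 25 in WT, and those with 10 or more 157 and 87. In KO, Ceacam1 was at 16.3 CPM with 1 rule-gene UMI, 26.2 with 2, 41.4 with 3, 70.7 with 4 to 9 and 142 with 10 or more. In WT the same steps were at 10.6, 25.2, 14.0, 59.5 and 147 CPM. Pou2f2, which encodes the octamer-binding factor OCT2, was at 159, 203, 288, 445 and 609 CPM in KO and 149, 200, 267, 356 and 512 CPM in WT over the same steps. Vcan, the matrix proteoglycan typical of classical monocytes, ran the other way, at 358, 382, 355, 265 and 89.2 CPM in KO and 279, 246, 105, 182 and 75.5 CPM in WT. The cells with 3 rule-gene UMIs thus lay between their neighbours for Ceacam1 in KO and below the cells just outside in WT, where 25 cells stand behind the value. There was no gap at the threshold.

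**Figure D1:**
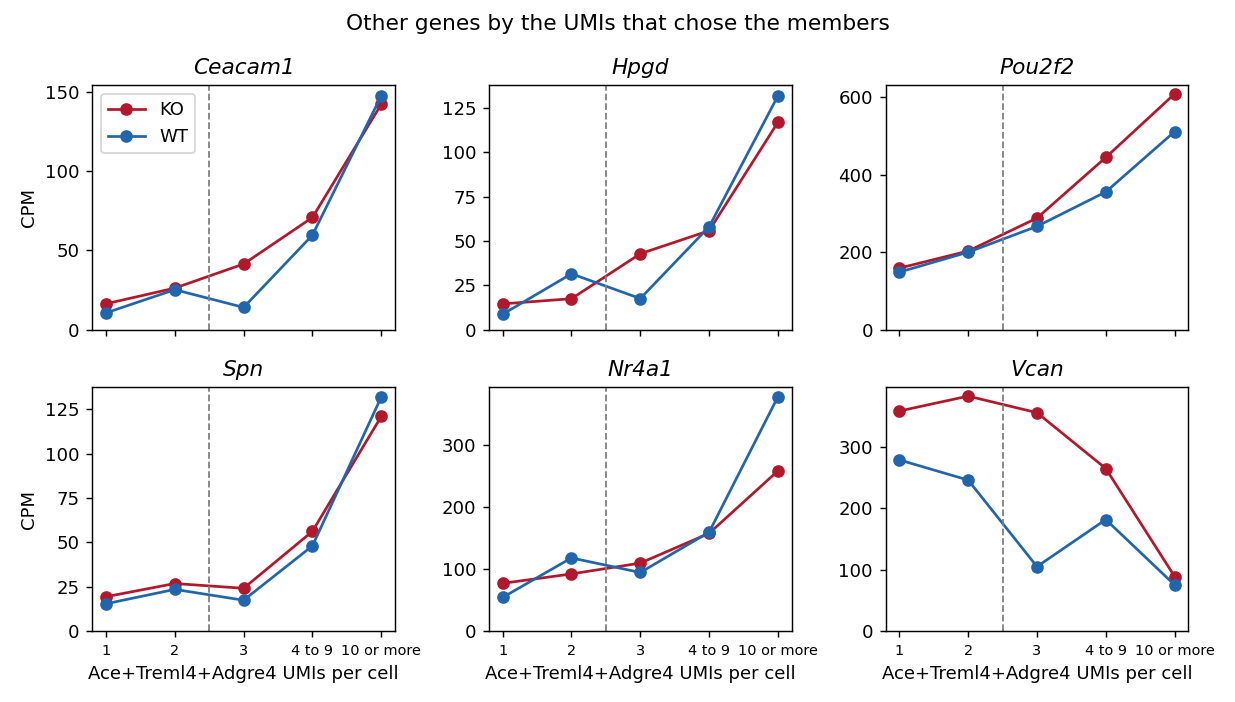
Level (CPM, vertical axis) of marker genes that the rule did not use, by the number of Ace, Treml4 and Adgre4 UMIs per cell (horizontal axis), for the KO and WT libraries, with the rule's threshold dashed. Ceacam1 reaches 142 CPM in KO and 147 CPM in WT at 10 or more rule-gene UMIs, where Vcan is down to 89.2 and 75.5 CPM.

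Set against classical monocytes, the cells carried the known non-classical programme at several times the level. A gene was counted here when it was at least 2-fold apart in the same direction in both libraries, with at least 50 UMIs over the 4 sums. Of 10540 genes with that many UMIs, 318 (3.02%) were higher and 337 (3.2%) lower in non-classical monocytes. Of 24 programme genes, 15 were higher and 1 lower, with a median log2 ratio of 1.47 in KO and 1.54 in WT, against 0.05 and 0.01 for all genes. The rule was built on this contrast, so these values describe the gated cells and support nothing further.

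Among transcription factors, Nr4a1, the nuclear receptor that these cells need, was at 185 CPM in KO and 227 CPM in WT non-classical monocytes, and at 54.0 and 68.6 CPM in KO and WT classical monocytes. It was 3.43 times higher in KO (3.05 to 3.87) and 3.31 times in WT (2.85 to 3.84). Pou2f2 was at 477 CPM in KO and 399 CPM in WT, against 110 and 115 CPM in KO and WT classical monocytes. Klf2, a factor of quiescent and patrolling leukocytes, was at 135 CPM in KO and 131 CPM in WT, against 54.5 and 53.1 CPM. Runx2, a Runt-family factor, was at 222 and 221 CPM in KO and WT, against 47.9 and 36.7 CPM in KO and WT classical monocytes. Cebpb differed less, at 1080.1 and 1010.5 CPM in KO and WT non-classical monocytes and 1234 and 1099 CPM in KO and WT classical monocytes.

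Surface and survival genes of the type followed. Spn, the sialoglycoprotein CD43, was at 73.8 CPM in KO and 73.3 CPM in WT, against 14.8 and 9.95 CPM in KO and WT classical monocytes. Itgal, the LFA-1 integrin chain by which these cells crawl, was at 605 CPM in KO and 419 CPM in WT, against 160.4 and 119 CPM. Cx3cr1, the fractalkine receptor, was at 101 and 144 CPM in KO and WT, against 36.8 and 51.0 CPM. Bcl2, which blocks apoptosis, was at 160.2 and 242 CPM in KO and WT non-classical monocytes, against 45.5 and 47.2 CPM. S1pr5, a sphingosine 1-phosphate receptor needed for their exit from bone marrow in the mouse, was at 22.4 and 19.8 CPM, against 1.79 CPM in KO and 0.255 CPM, a single UMI, in WT classical monocytes. Each of these genes was higher in the non-classical than in the classical monocytes of both libraries. Spn, Itgal and Cx3cr1 were also common in T cells, which were deeper. A UMI was seen in 79.4%, 92.9% and 36.1% of KO and 79.8%, 90.6% and 43.4% of WT T cells.

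Genes named by rank widened the picture. Slc12a2, a sodium, potassium and chloride cotransporter, was at 65.9 CPM in KO and 69.1 CPM in WT, against 2.68 and 1.28 CPM in KO and WT classical monocytes. Ear2, an eosinophil-associated ribonuclease known from this monocyte type, was at 141 and 168 CPM, against 17.4 and 18.6 CPM. Hes1 was at 72.2 and 95.1 CPM, against 8.43 and 10.46 CPM. Pot1b, a telomere-binding protein, was at 412 and 389 CPM, against 58.1 and 41.1 CPM, and Grk3, a kinase of G protein-coupled receptors, at 460 and 396 CPM, against 67.0 and 46.7 CPM. The remaining genes higher by this rank were Cd300e, Tbc1d8, Adgrl3, Eno3, Tiam2, Ceacam1, Heg1, Gngt2, Abi3 and Runx2.

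Chemokine and receptor genes were among those lower by rank. Ccl7, a CCR2 ligand, was at 50.3 CPM in KO and 75.3 CPM in WT, against 546 and 586 CPM in KO and WT classical monocytes. Ccl2, the main CCR2 ligand, was at 164 and 257 CPM, against 1578 and 1685 CPM. Free RNA could give 58.8% (KO) and 57.2% (WT) of the Ccl7 UMIs and 36.1% and 29.9% of the Ccl2 UMIs in the non-classical cells. Mrc1, the mannose receptor, was at 43.3 and 38.3 CPM, against 158 and 222 CPM, and Fn1, fibronectin, at 192 and 163 CPM, against 658 and 511 CPM. The C1q macrophage list, which holds Mrc1, summed to 374 CPM in KO and 584 CPM in WT classical monocytes, and its part in these values was not tested. Thbs1, F13a1, C3ar1, Dab2, Adam8, Cd200r1, Gpat3, Emp1, Dmkn, Arhgap10 and Cacna1d were the other genes lower by rank. Of 22 measured macrophage differentiation genes 7 were lower, and of 24 hypoxia and glycolysis genes 4 were lower, with medians of -0.87 in KO and -0.85 in WT.

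**Figure D2:**
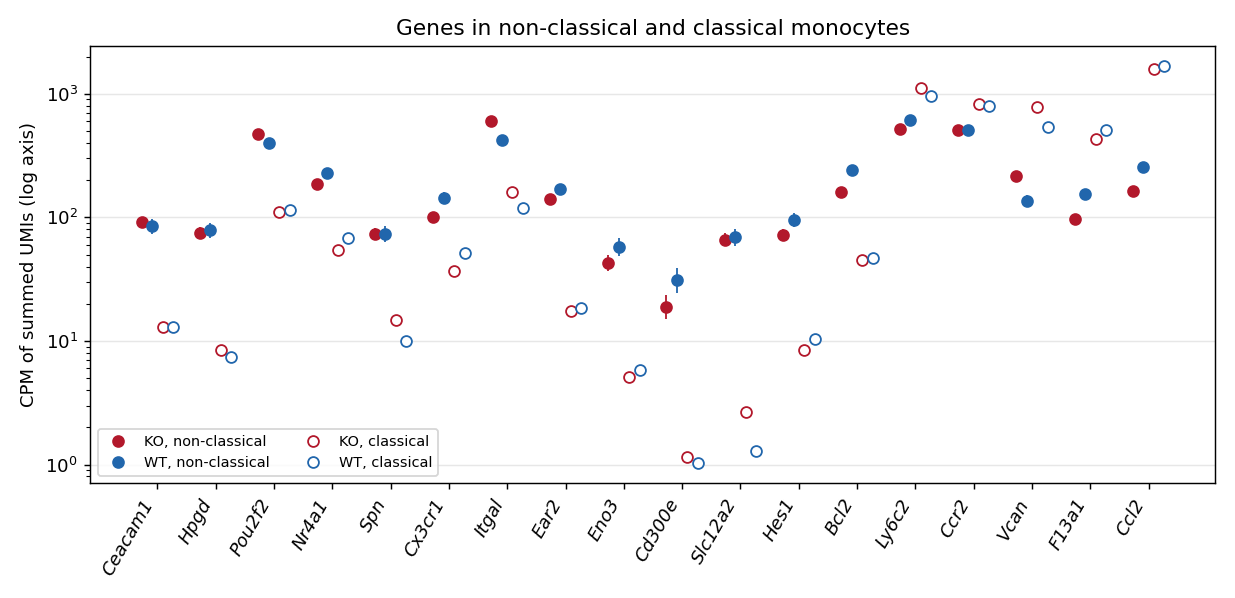
Levels (CPM, log axis) of label, programme and classical genes in non-classical (filled, with 95% counting intervals) and classical (open) monocytes of the KO and WT libraries. The non-classical points lie above the classical points of the same library for Ceacam1 (91.1 CPM against 12.9 CPM in KO) and below them for Ly6c2 (523 CPM against 1119 CPM in KO).

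Ly6c2, the gene that separates the monocyte types in blood, was not absent from the cells. It was at 523 CPM in KO and 619 CPM in WT, with a UMI in 58.9% and 63.6% of cells, and at 1119 and 957 CPM in KO and WT classical monocytes. Ccr2 was at 506 CPM in KO and 507 CPM in WT, with a UMI in 70.2% and 73.7% of cells. Split by Ly6c2, 204 KO cells (41.1%) and 86 WT cells (36.4%) had no UMI, 158 (31.9%) and 80 (33.9%) had under 5 per 10000, and 134 (27.02%) and 70 (29.7%) had more. The KO and WT libraries thus held the 3 levels in like proportions. In the cells with most, Ly6c2 was at 1299 CPM in KO and 1432 CPM in WT, a level that the split by Ly6c2 itself made high. Of 11 measured genes of the classical programme, 3 were lower than in classical monocytes and 1 was higher. By the shares with no Ly6c2 UMI and with 5 or more per 10000, the gated cells were mixed for this gene.

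Several non-classical genes were highest where Ly6c2 was undetected. Hpgd was at 128, 71.3 and 36.2 CPM over the 3 levels from none to high in KO, and at 116, 97.5 and 34.3 CPM in WT. Spn was at 118, 67.8 and 44.1 CPM in KO and 122, 75.1 and 37.6 CPM in WT. Nr4a1 was at 303, 146 and 136 CPM in KO and 312, 254 and 140 CPM in WT. Cd36, the scavenger receptor for oxidised lipid, was at 161, 99.9 and 41.9 CPM in KO and 169, 138 and 36.5 CPM in WT. For each of these genes the order was the same in both libraries. Ceacam1 kept it in KO only, at 121, 87.7 and 70.3 CPM in KO and 82.3, 108 and 63.0 CPM in WT.

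Vcan, Isg15 and Cxcl10 ran the other way. Vcan was at 76.6, 197 and 360 CPM over the same levels in KO and 49.1, 92.99 and 240 CPM in WT. Isg15, an interferon-induced ubiquitin-like protein, was at 365, 586 and 934 CPM in KO and 374, 621 and 1167 CPM in WT. Cxcl10, a ligand of the T cell receptor CXCR3, was at 1006, 1239 and 1808 CPM in KO and 660, 782 and 1026 CPM in WT. Cxcl9, another ligand of CXCR3, was at 197, 524 and 563 CPM in KO but at 275, 574 and 247 CPM in WT, so that interferon-induced genes did not all share the order. Cells with no Ly6c2 UMI were the shallower, with median UMIs of 4668.5, 10200 and 9855.5 over the 3 levels in KO and 5471.5, 10340 and 11895 in WT. The part of depth in these orders was not tested.

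**Figure D3:**
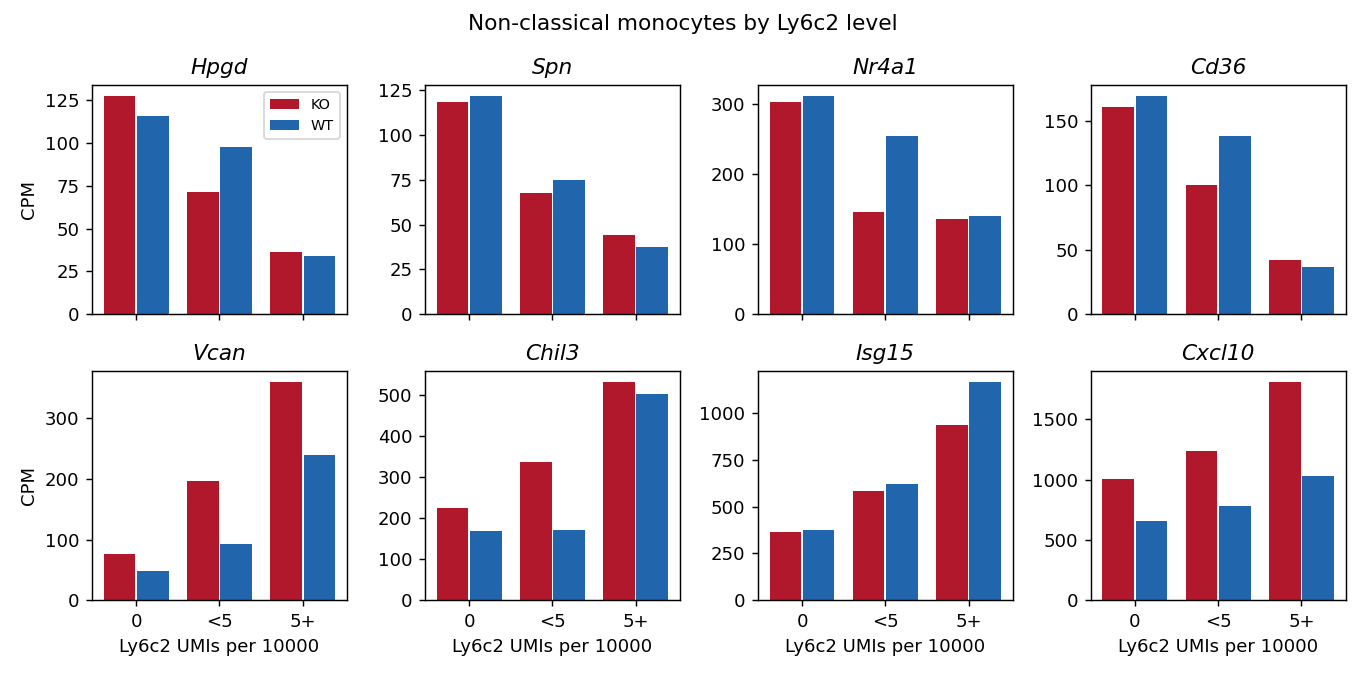
Levels (CPM, vertical axis) of non-classical, classical and interferon-induced genes by Ly6c2 level per cell (horizontal axis: 0 UMIs, under 5 and 5 or more per 10000) in KO and WT non-classical monocytes. Hpgd goes down over the steps, to 36.2 CPM in KO and 34.3 CPM in WT, and Isg15 goes up, to 934 and 1167 CPM.

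The design asks how immune cells differ when the tumour lacks DGAT1. Non-classical monocytes made up 4.41% of filtered barcodes in KO (4.04 to 4.81) and 2.63% in WT (2.31 to 2.98), a ratio of 1.68 (1.44 to 1.97). With each barcode thinned to 2000 UMIs before the rule was applied, the shares were 1.91% in KO and 0.962% in WT and the ratio 1.98 (1.53 to 2.59). Classical monocytes were 6.56% in KO and 3.26% in WT, a ratio of 2.01 (1.75 to 2.31). There were therefore 0.673 non-classical monocytes per classical monocyte in KO and 0.805 in WT, a ratio of 0.836 whose interval included 1 (0.677 to 1.03). Both monocyte types took a larger share in the KO library. As part of both gates together, non-classical monocytes were 40.2% in KO (37.5 to 43.0) and 44.6% in WT (40.3 to 49.0), within counting error of each other. All shares rest on the CD45+ sort, the UMI minimum and a rule on raw UMIs in libraries of unequal depth, and spread between tumours was not measured.

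Between KO and WT, the label genes and most of the programme were less than 1.5-fold apart, though some differed beyond counting error. Of the label genes, Ace, Treml4 and Adgre4 had chosen the cells. A gene was counted when KO and WT were at least 1.5-fold apart with at least 50 UMIs over both. Of 8569 such genes, 590 (6.89%) were higher and 387 (4.52%) lower in KO non-classical monocytes, with a median log2 ratio of 0.08. Of the 9660 genes measured in classical monocytes, 676 (7%) were higher and 810 (8.39%) lower. In the non-classical programme list, 0 of 23 measured genes were higher and 2 lower, with a median of -0.11. Of the pair that was lower, Cd300e, an activating receptor, was at 18.9 CPM in KO and 31.3 CPM in WT (0.603, 0.435 to 0.836), and Apoc2, an apolipoprotein, was at 84.5 and 129 CPM (0.656, 0.563 to 0.766). Nr4a1 was at 0.817 times its WT level (0.732 to 0.913) and Klf2 at 1.03 times (0.895 to 1.18). Over 22 gene lists, 416 genes in all, 368 were measured, 16 were higher (4.35%) and 54 lower (14.7%), a lower share above the 4.52% over all genes. The lists were chosen with earlier results of these data known, so this excess supports nothing further.

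The KO over WT ratio moved with gene length. The median log2 ratio was -0.20 over 1875 genes spanning under 10 kb, 0.07 over 4141 genes of 10 to 50 kb and 0.23 over 2550 genes of 50 kb or more. In classical monocytes the medians were -0.20, 0.05 and 0.23. Ribosomal protein genes took 8.89% of UMIs in KO and 11.9% in WT non-classical monocytes, and genes of 50 kb or more 33.3% and 28.3%. The list counts below stand beside 6.89% higher and 4.52% lower over all genes, or 7% and 8.39% in classical monocytes. The ratios below are as measured. Taken relative to the median of genes of like span, 14 list genes counted below were short of 1.5-fold, among them Apoc2, Ccl2, Cd14, Cd93, Egr1, Gapdh, Hmox1, Hspa1a, Il1b, Jak2, Mif, Runx1 and Vcan. Another 13 list genes passed it, among them Cd86 (-0.60), Cx3cr1 (-0.74), Fabp5 (0.77) and Ifit1 (0.63). Of the genes named by rank below, 3 were short of the fold on that scale: Il1b (-0.55), Ifitm2 (-0.56) and Ifitm6 (-0.53).

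The list counts on that scale differed from those below for most lists. Classical programme genes were 0 higher and 1 lower, adhesion genes 0 and 2, Fc and paired receptors 1 and 1, mediators 0 and 1, and type I interferon genes 2 and 1. Interferon-γ targets were 2 higher and 0 lower, class II and costimulation genes 3 and 1, class I genes 1 and 0, lipid genes 1 and 3, and ferroptosis and iron genes 1 and 3. Immediate-early genes were 2 higher and 2 lower, macrophage differentiation genes 1 and 8, suppressive genes 1 and 2, lectins and scavengers 0 and 5, and transcription factors 1 and 2.

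Genes higher in KO by rank included Cish, Fkbp5, Vdr and Flt1. Cish, a feedback inhibitor of STAT5-activating cytokines, was at 39.1 CPM in KO and 6.59 CPM in WT (5.94 times, 3.55 to 10.6), and at 47.9 and 11.2 CPM in KO and WT classical monocytes. Fkbp5, a glucocorticoid-induced co-chaperone, was at 84.5 and 32.1 CPM (2.63 times, 2.06 to 3.41). Vdr, the vitamin D receptor, was at 12.8 and 2.88 CPM (4.45 times, 2.02 to 11.6). Flt1, the VEGF receptor 1, was at 106 CPM in KO and 41.2 CPM in WT (2.59 times, 2.08 to 3.24), and at 220.4 and 87.0 CPM in KO and WT classical monocytes. For Cish the WT value rests on 14 cells and for Vdr on 5.

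Ccnd3, Tfec, Hs3st3b1 and Ppargc1b were also higher in KO by rank. Ccnd3, the cyclin D3 of G1 phase, was at 596 CPM in KO and 314 CPM in WT (1.90 times, 1.75 to 2.06), with a UMI in 425 KO and 190 WT cells. Tfec, a transcription factor of the MiT family, was at 63.1 and 23.05 CPM (2.74 times, 2.05 to 3.72). Hs3st3b1, a heparan sulfate sulfotransferase, was at 30.7 and 4.94 CPM (6.22 times, 3.45 to 12.4), the WT value resting on 8 cells. Ppargc1b, a coactivator of mitochondrial genes, was at 43.1 and 14.0 CPM (3.08 times, 2.13 to 4.58). Trim30c was at 136 and 51.0 CPM (2.67 times, 2.20 to 3.27), and its close copies could share its reads. Mid1, Abtb2, Cspp1, St7, Chn2 and Galnt3 were the other genes ranked as higher.

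Genes lower in KO by rank included Fos, Il1b and Lgmn. Fos, a subunit of the AP-1 factor, was at 117 CPM in KO and 237 CPM in WT (0.495, 0.438 to 0.559), and at 189.9 and 273 CPM in KO and WT classical monocytes. Il1b, the inflammatory cytokine interleukin 1β, was at 500.4 CPM in KO and 841 CPM in WT (0.595, 0.560 to 0.633), against 403 and 469 CPM in KO and WT classical monocytes. Lgmn, the lysosomal protease legumain, was at 291 and 485 CPM (0.601, 0.554 to 0.651). C1q macrophage genes summed to 197 CPM in KO and 288 CPM in WT, and their part in the Lgmn ratio was not tested.

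Basp1, a membrane-attached signalling protein, was at 122 CPM in KO and 272 CPM in WT (0.446, 0.397 to 0.501), and at 409 and 482 CPM in KO and WT classical monocytes. Ppp1r15a, the stress-induced phosphatase subunit GADD34, was at 26.3 and 58.4 CPM (0.450, 0.349 to 0.581). Il18bp, which binds and blocks interleukin 18, was at 20.0 and 40.7 CPM (0.491, 0.364 to 0.663). Ifitm2 and Ifitm6, interferon-induced membrane proteins with close copies that could share reads, were at 0.592 (0.563 to 0.621) and 0.603 (0.546 to 0.667) of their WT levels. Tex14, Blm, Micos13, Fnip2, Pgam1 and Ifrd1 were also ranked as lower. The genes named here had a log2 ratio of the same sign in classical monocytes, and no difference between the types was tested.

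**Figure D4:**
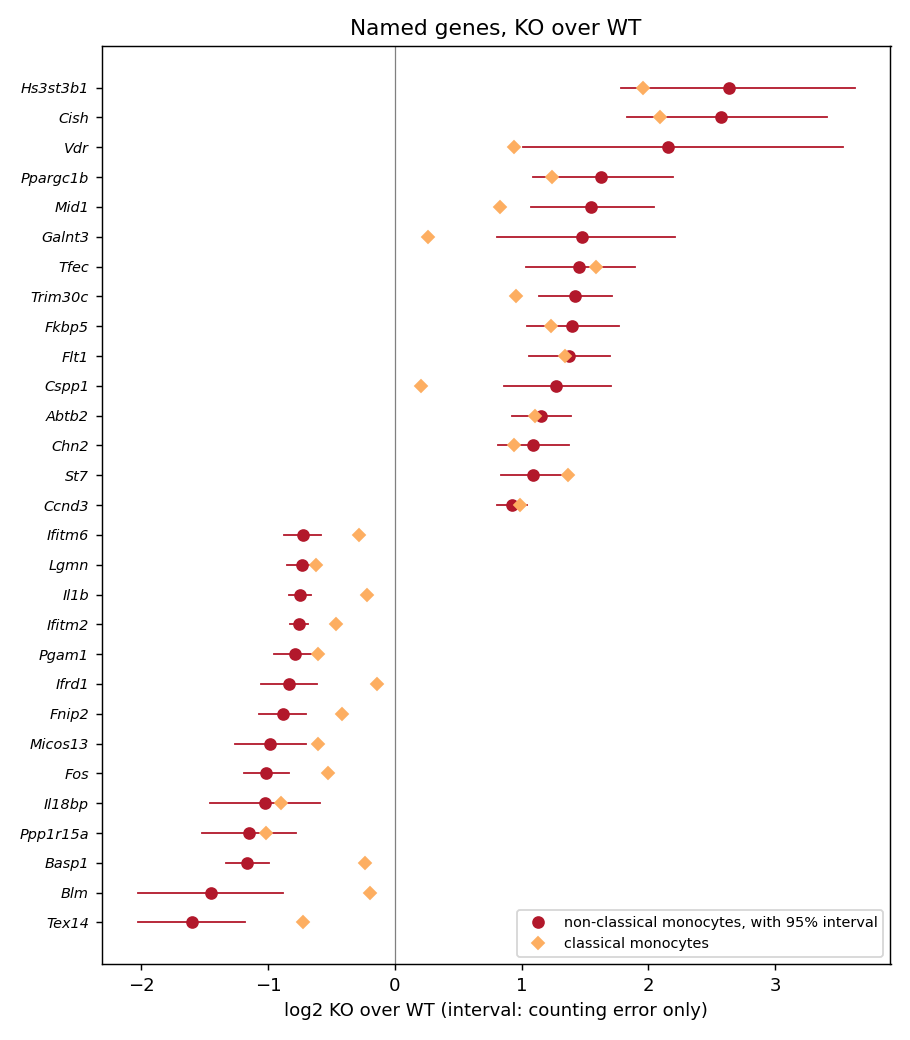
Log2 ratio of KO over WT (horizontal axis) for the named genes ranked in each direction in non-classical monocytes (circles, with 95% counting intervals), beside classical monocytes (diamonds). Each pair of points lies on the same side of 0, and Basp1 and Galnt3 are examples whose classical point lies nearer to 0.

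Many glycolytic and hypoxia-induced genes were lower in KO. Of 24 measured, 11 were lower, 0 higher and 20 had a log2 ratio under 0, with a median of -0.52, and in classical monocytes 5 were lower with a median of -0.43. Over all genes 4.52% were lower, and 8.39% in classical monocytes. Tpi1, triosephosphate isomerase, was at 163 CPM in KO and 310.4 CPM in WT (0.527, 0.475 to 0.585), and at 374 and 674 CPM in KO and WT classical monocytes. Gapdh, which follows it in glycolysis, was at 663 and 1045 CPM (0.634, 0.601 to 0.669), or at a log2 ratio of -0.46 relative to genes of like span. Pgam1, phosphoglycerate mutase, was at 145 and 250.3 CPM (0.578, 0.516 to 0.647), and Ldha, lactate dehydrogenase, at 238 and 361 CPM (0.660, 0.602 to 0.723). Bnip3, a hypoxia-induced mitophagy receptor, was at 34.5 and 59.7 CPM (0.577, 0.456 to 0.731).

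The same list held Pgk1 at 199.6 and 302 CPM, Mif at 223 and 362 CPM and Ankrd37 at 14.0 and 37.0 CPM in KO and WT, with Pdk1, Slc2a3 and Ndrg1 also lower, though the log2 ratio of Ndrg1 was 0.013 with at least 6 rule-gene UMIs and 0.14 with at least 3 per 10000. Slc2a1, the main glucose transporter of the list, was at 91.1 CPM in KO and 112 CPM in WT (0.813, 0.695 to 0.953), short of 1.5-fold. Relative to genes of like span 10 were lower with a median of -0.56, and without the 28 KO and 14 WT cells holding 10 or more UMIs of another type's markers 9 of 23 were lower with a median of -0.52. Those markers include Csf3r, Wdfy4 and Tcf4, seen in 348, 360 and 247 KO non-classical monocytes. Cells could thus be left out for genes common in the non-classical monocytes themselves. Free RNA could give 34.6% (KO) and 32.7% (WT) of the Tpi1 UMIs and 28.3% and 30.9% of the Gapdh UMIs.

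Lipid genes were counted because DGAT1 makes storage lipid. Of 33 measured, 0 were higher and 4 lower, with a median of -0.04, and in classical monocytes 9 of 34 were lower with a median of -0.24. The shares lower over all genes were 4.52% in non-classical and 8.39% in classical monocytes. Plin2, the coat protein of lipid droplets, was at 211 CPM in KO and 334 CPM in WT (0.631, 0.573 to 0.694), and at 339 and 519.6 CPM in KO and WT classical monocytes. Hilpda, a droplet protein that inhibits lipolysis and is also induced by hypoxia, was at 17.0 and 51.0 CPM (0.333, 0.246 to 0.448), and free RNA could give 94.7% of its UMIs in KO and 39.4% in WT. Apoc2 and Scd2, a fatty acid desaturase, were the others. Apoe, the lipid carrier, was at 507 and 703 CPM (0.721, 0.676 to 0.768), Cd36 at 97.6 and 108 CPM (0.901, 0.771 to 1.06) and Lpl, lipoprotein lipase, at 57.3 and 57.2 CPM (1.001, 0.810 to 1.24). Fabp5, a fatty acid-binding protein, was at 539 CPM in KO and 362 CPM in WT (1.49, 1.38 to 1.61), just short of the fold counted.

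Interferon-γ targets leaned the other way. Of 20 measured, 3 were higher, 0 lower and 18 had a log2 ratio above 0, with a median of 0.24, and classical monocytes had 4 higher and a median of 0.28. Cxcl10 was at 1362 CPM in KO and 841 CPM in WT (1.62, 1.54 to 1.70), and at 2061 and 1697 CPM in KO and WT classical monocytes. Socs1, the feedback inhibitor of the pathway, was at 102 and 53.1 CPM (1.93, 1.58 to 2.37). Jak2, its kinase, was at 303 and 193 CPM (1.57, 1.41 to 1.75), but relative to genes of like span its log2 ratio was 0.42, short of the fold. Of the Cxcl10 UMIs, 26.8% in KO and 44.2% in WT lay in 10 cells.

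Type I interferon genes gave few counts. Of 25 measured, 1 was higher and 0 lower, with a median of 0.09. Oas2, an antiviral oligoadenylate synthetase, was at 192 CPM in KO and 121 CPM in WT (1.59, 1.39 to 1.82). Isg15 was at 639.7 and 759.8 CPM (0.842, 0.793 to 0.894) and Ifit1, an RNA-binding antiviral protein, at 149 and 110.3 CPM (1.35, 1.17 to 1.56), so that members ran in both directions.

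Antigen presentation by class II molecules, with its costimulatory ligands, ran in both directions. Of 13 measured, 3 were higher and 0 lower, against 6.89% and 4.52% over all genes, and the median was -0.17. Cd80, a ligand of CD28 and CTLA-4, was at 153 CPM in KO and 81.1 CPM in WT (1.89, 1.61 to 2.22), and at 147 and 83.2 CPM in KO and WT classical monocytes. Icosl, the ligand of ICOS, was at 30.7 and 18.5 CPM (1.66, 1.17 to 2.38). H2-DMb2 was higher too, with 69.4% (KO) and 100% (WT) of its UMIs in 10 cells. Of the class II genes, Cd74, the invariant chain, was at 3539.9 CPM in KO and 4902 CPM in WT (0.722, 0.705 to 0.740), within the fold, and H2-Aa and H2-Ab1 were at 0.721 (0.694 to 0.749) and 0.737 (0.709 to 0.767) of their WT levels. Ciita, the class II transactivator, was at 283 and 214 CPM (1.33, 1.20 to 1.47), the opposite direction. Of 13 class I presentation genes none was counted, with a median of -0.09.

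Inflammatory mediators and chemokines were mixed. Of 15 measured mediators, 0 were higher and 2 lower, Il1b and Nfkbiz, an NF-κB cofactor at 204 CPM in KO and 324 CPM in WT (0.628, 0.570 to 0.693). Tnf was at 67.1 and 91.4 CPM (0.734, 0.614 to 0.878). Of 15 chemokines, all spanning under 10 kb, 2 were higher and 5 lower, with a median of -0.27. Relative to genes of like span 4 were higher and 4 lower, with a median of -0.08. Ccl2 was at 164 CPM in KO and 257 CPM in WT (0.636, 0.571 to 0.710), with 50.9% and 68.6% of the UMIs in 10 cells. Cxcl2, which attracts neutrophils, stood at 71.5 CPM in KO and 150.2 CPM in WT, with 81.8% and 95.1% in 10 cells, and it was higher in KO without cells holding 10 or more UMIs of another type (log2 0.97). Ccl3, Ccl8 and Cxcl3 were the other lower genes and Ccl22 the other higher gene. Most of the Cxcl2 and Ccl2 UMIs thus lay in few cells. A Ccl2 UMI was still seen in 170 of 496 KO and 93 of 236 WT cells. For Cxcl10 a UMI was seen in 46.4% of KO and 42.8% of WT cells. Without the same cells, which include those with 10 or more UMIs of neutrophil genes, the log2 ratio of Il1b was -0.82, against -0.75 with them. Neutrophil genes summed to 380 CPM in KO and 296 CPM in WT, of which Csf3r gave 227 and 166 CPM. The part of neutrophil genes in the Cxcl2 and Il1b values was otherwise not tested.

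Macrophage differentiation genes leaned lower in KO in both monocyte types. Of 21 measured in non-classical monocytes, 7 were lower and 1 higher, with a median of -0.31, and of 22 in classical monocytes 10 were lower, with a median of -0.54. Over all genes, 4.52% were lower in non-classical and 8.39% in classical monocytes. Filtered barcodes outside both gates held the C1q macrophage genes at 1794 CPM in KO and 4338 CPM in WT. The part of such RNA in these ratios was not tested. Beside Lgmn, Ctsl, the lysosomal protease cathepsin L, was at 55.7 CPM in KO and 103 CPM in WT (0.539, 0.449 to 0.646). Spp1, osteopontin, was at 28.4 and 77.8 CPM (0.365, 0.288 to 0.461), with 67.2% and 80.4% of its UMIs in 10 cells, and its log2 ratio was -0.075 with at least 3 rule-gene UMIs per 10000. Gpnmb, Ms4a7 and Cd63 were also lower. Free RNA could give 88.6% (KO) and 100% (WT) of the Ms4a7 UMIs. Arg1, arginase 1, was higher at 46.3 and 12.3 CPM, but 78.9% of its KO UMIs lay in 10 cells, free RNA could give 63.4% in KO and 100% in WT, and in classical monocytes it was at 316 and 441 CPM.

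Receptors for damage and microbes leaned lower. Of 16 C-type lectin and scavenger genes, 6 were lower and 0 higher, with a median of -0.25, against 4.52% lower over all genes. Clec4e, the lectin Mincle that senses dead cells and mycobacterial glycolipid, was at 107 CPM in KO and 212 CPM in WT (0.507, 0.447 to 0.577). Cd14, the lipopolysaccharide co-receptor, was at 53.1 and 84.8 CPM (0.626, 0.516 to 0.760), with 33.3% and 65.0% of its UMIs in 10 cells. C5ar1, the receptor for complement C5a, was at 52.2 and 86.4 CPM (0.603, 0.498 to 0.732). Of 22 Fc and paired receptor genes, 1 was lower, with a median of -0.08, and Fcgr4, the activating receptor for IgG2 antibodies typical of these cells, was at 219 and 284 CPM (0.770, 0.698 to 0.851).

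Adhesion genes were near even, with 1 of 24 higher, 1 lower and a median of 0.11. Itgal was at 605 CPM in KO and 419 CPM in WT (1.44, 1.34 to 1.55), short of the fold counted. Vcan, used only to define the classical cells, was at 218 CPM in KO and 136 CPM in WT (1.60, 1.41 to 1.82), or at a log2 ratio of 0.44 relative to genes of like span. F13a1, the clotting factor XIII subunit, went against it within the classical programme at 96.2 and 154 CPM (0.623, 0.540 to 0.719), and of the 14 measured genes of that list 2 were higher and 2 lower.

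Survival genes had 1 of 19 lower, near the 4.52% over all genes. This was Bcl2, at 160.2 CPM in KO and 242 CPM in WT (0.663, 0.593 to 0.742), against 45.5 and 47.2 CPM in KO and WT classical monocytes. Mcl1 was at 0.929 of its WT level (0.874 to 0.988). Csf1r, the receptor for the survival factor CSF1, was at 502 and 410.4 CPM (1.22, 1.13 to 1.32). Of 29 transcription factors 2 were higher and 2 lower, near the 6.89% and 4.52% over all genes. Runx1, a Runt-family factor, was at 1253 CPM in KO and 773 CPM in WT (1.62, 1.54 to 1.71), with a like ratio in classical monocytes at 1189 and 659 CPM. Relative to genes of like span its log2 ratio was 0.47, short of the fold. Irf4 was at 12.6 and 5.35 CPM, on 38 KO and 8 WT cells, while Nr4a2 was lower at 6.99 and 11.5 CPM.

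Immediate-early and heat shock genes, which respond to tissue handling as well as to signals, had 4 of 20 lower and 2 higher, with a median of -0.22. Over all genes 4.52% were lower and 6.89% higher, and these shares stand beside the list counts that follow. Egr1, an early growth response factor, was at 44.9 CPM in KO and 72.9 CPM in WT (0.617, 0.5005 to 0.761). Hspa1a, an inducible HSP70, was at 219.8 and 349 CPM (0.631, 0.574 to 0.693), while Hspa8, the constitutive form, was at 1698 and 1077 CPM (1.58, 1.51 to 1.65). Ferroptosis and iron genes had 4 of 17 lower and 1 higher, with a median of -0.23, or 1 of 16 lower and a median of 0.00 without cells holding 10 or more UMIs of another type. Slc7a11, the cystine transporter, was at 35.2 and 57.2 CPM, and its log2 ratio turned to 0.51 without those cells. Hmox1, haem oxygenase, was at 153 and 230.1 CPM and its log2 ratio turned to 0.36. Cell cycle genes had 5 of 10 lower, with a median of -0.61, or 2 of 9 lower and a median of -0.21 without those cells. Suppressive genes had 1 of 13 higher and 1 lower, and Cd274, the checkpoint ligand PD-L1, was at 422 CPM in KO and 403 CPM in WT (1.05, 0.970 to 1.14). Eicosanoid genes had 1 of 12 lower and complement genes 1 of 8.

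**Figure D5:**
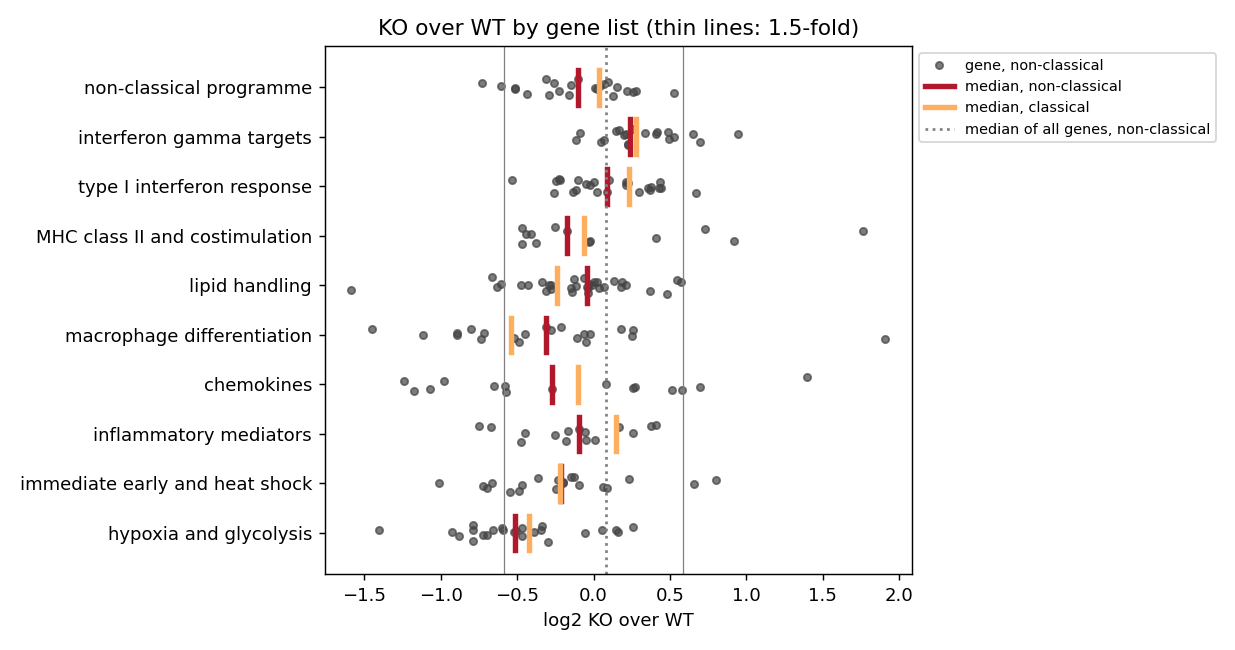
Median log2 ratio of KO over WT (horizontal axis) over the measured genes of 10 of the lists, in non-classical (red) and classical (orange) monocytes, with each gene of non-classical monocytes as a point and the median of all genes dotted. The hypoxia and glycolysis list lies at -0.52 and -0.43 and the interferon-γ list at 0.24 and 0.28.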

How the data were processed

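The data are 2 droplet single-cell libraries of sorted CD45+ cells, 1 per group. The authors deposited counts, raw and whole, of UMIs for each gene in each barcode. Cell Ranger 7.2.0 produced the matrices, per the file headers, and the build was mm10, per the submitters' processing notes. The annotation behind the counts, filters and the treatment of intronic reads were not stated in the labels or headers. Gene spans were read from GENCODE M21, matched for 8566 genes.

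Cells were gated on raw UMIs by the rule. UMIs were summed per gate and library and scaled to CPM, with exact Poisson intervals for levels, Clopper-Pearson intervals for shares, a conditional interval of the odds ratio for cells per classical monocyte and, for ratios, the exact interval conditional on the sum, all 95%. A count of 0 allows up to 3 UMIs, or 0.699 CPM in KO and 1.23 CPM in WT non-classical monocytes. No test, p-value or standard error was computed, since cells are not replicates and each group has 1 library. Named genes had at least 50 UMIs and a ratio of at least 1.5 between libraries, or at least 2 between types in both. The bound of the ratio's interval closest to 1 set their rank, 15 each way. Rule genes, Gm and Rik models, Xist and genes of the Y chromosome, of haemoglobin, of antigen receptors, of ribosomal proteins and of mitochondria were left out of that rank, as were genes for which, in the library or gate where the gene was higher, free RNA could give 25% or more of the UMIs or 10 cells held 50% or more. Free RNA was read from barcodes of 1 to 100 UMIs. Doublets were marked with Scrublet in scanpy 1.11.5. Shares of cells were also computed after thinning to 2000 UMIs.

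The members, lists and alternatives were chosen with earlier results of these data known. The free RNA estimate without cells of 10 or more melanoma UMIs, the leaving out of cells with 10 or more UMIs of another type and the ratios relative to genes of like span were chosen after seeing the data. The computation was tested on simulated data. Other alternatives changed the UMI, mitochondrial and marker minimums, doublets, Ly6c2, weighting, free RNA, scaling and the UMI minimum per gene. Python 3.11.15, numpy 2.4.6, scipy 1.17.1, pandas 2.3.3 and matplotlib 3.10.9 were used. Mx1, Mx2 and Clec7a were not analysed here. Some genes that are counted in the lists and ranks are not reported here by name.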

Additional observations from a re-analysis of the deposited data

Results flagged for a closer look

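Ccl22, a chemokine of mature dendritic cells, had log2 ratios of opposite sign in the monocyte types. Its log2 ratio of KO over WT was 1.39 in non-classical monocytes, at 33.5 CPM in KO and 12.8 CPM in WT, and -0.67 in classical monocytes, at 4.98 and 7.91 CPM in KO and WT. The classical ratio rests on few UMIs and was within counting error, and the difference between the types was not tested. A Ccl22 UMI was seen in 16 KO and 4 WT non-classical monocytes, and 10 cells held 95.8% of the KO UMIs and 100% of the WT UMIs. Mature dendritic cell genes (Ccr7, Fscn1, Il4i1 and Cacnb3) summed to 62.4 CPM in KO and 57.6 CPM in WT, with 90.3% and 96.4% in 10 cells. Without cells holding 10 or more UMIs of another type, the log2 ratio of Ccl22 in non-classical monocytes was 1.78. The part of mature dendritic cell genes in the result was otherwise not tested.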

How the results depend on the processing

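No paired analysis was possible because each group has 1 library and the labels carry no replicate numbers, and for the same reason no library could be left out. The KO over WT ratio of the share (1.68) was 1.98 after thinning to 2000 UMIs, and that of non-classical per classical monocytes (0.836) was 0.707, within its interval. With at least 10 UMIs per gene, 1365 genes were higher and 1038 lower in KO, and 513 higher and 703 lower than in classical monocytes. With at least 200 UMIs these counts were 213, 121, 197 and 162, and the list genes past the fold were 10 higher and 33 lower. List genes higher in KO numbered 30 among cells with at most 1 Ly6c2 UMI. Genes lower than in classical monocytes numbered 224 at no more than 5% mitochondrial UMIs, 191 after thinning, 515 with free RNA subtracted and 206 without cells of another type. Of 5097 log2 ratios of KO over WT under alternatives, 760 moved outside their counting interval and 10 changed sign. Sign changes were those of Ndrg1 at 6 or more marker UMIs (0.013) and with markers per 10000 UMIs (0.14), Clec10a with markers per 10000 (0.32) and without cells of another type (0.031), Cxcl2 (1.17) and Slc7a11 (0.10) at low Ly6c2, Cxcl2 (0.97), Slc7a11 (0.51) and Hmox1 (0.36) without cells of another type, and Mki67 after thinning (0.16). Of 330 list counts each way, 79 (higher) and 77 (lower) moved by more than 1.5 times. The cause was not tested, other than that higher minimums test fewer genes. Depth limits genes under 50 UMIs, for which no ratio is read.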
